A study of Mus musculus with 21 samples.

Results

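The genes described here are the 6 BH3-only genes Bcl2l11 (encoding BIM), Bid, Bbc3 (PUMA), Pmaip1 (NOXA), Bmf and Bad and the 3 effector genes Bax, Bak1 and Bok of the BCL-2 family. They were taken by family name, in a choice made with earlier results of these data known, and all 9 were found among the 45706 gene identifiers of the count files and passed the filter on low counts, which left 19555 genes. Their messenger RNA was counted in 21 RNA-seq libraries from a mouse model of juvenile myelomonocytic leukemia, a myeloproliferative disease of early childhood that is often driven by mutation of PTPN11. Bone marrow (BM) cells that were lineage-negative, Sca positive and cKit positive (LSK, the stem and progenitor fraction), CD11b+ myeloid cells of BM and CD11b+ myeloid cells of spleen were sorted from 3 genotypes. The first genotype, MxCre, carried only the Cre recombinase under the interferon-inducible Mx promoter. The second, Ptpn11D61Y/+, carried the mutant allele behind a Neo-Stop cassette and no Cre, so that the allele was kept silent. The third, MxCre;Ptpn11D61Y/+, carried both and was sampled at the terminally ill stage called S3. Per the study's methods all mice received poly I:C, which turns on Mx-Cre in hematopoietic and other interferon-responsive cells, so that both control genotypes share this exposure with the S3 mice. Each fraction held 2 MxCre, 2 Ptpn11D61Y/+ and 3 S3 libraries. The S3 libraries are named by the numbers in their labels, 540 and 815 in every fraction, 768 in LSK and 640 in both CD11b+ fractions. The age of the mice was not given in the labels. Total counts per library were between 34992610 and 104509425, with a median of 69421661.

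BCL-2 family proteins control the permeability of the outer mitochondrial membrane. BAX and BAK form pores in it that release cytochrome c and start the caspase cascade, BOK is a related protein that is held in check largely through its degradation, and the anti-apoptotic members (BCL-2, BCL-XL, MCL-1, A1) bind and restrain both the effectors and the BH3-only proteins. BH3-only proteins carry stress signals to this switch. BIM and PUMA bind all main anti-apoptotic members and can act on BAX and BAK, BID does so after it is cleaved by caspase-8, and NOXA, BMF and BAD each bind a narrower set, NOXA mainly MCL-1 and A1, BAD mainly BCL-2 and BCL-XL. In myeloid cells BIM is known for its part in the short life of neutrophils, and signalling from RAS to ERK is known to mark BIM for degradation.

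Bcl2l11 and Bbc3 were the 2 members called between genotypes by edgeR with all 21 libraries fitted, and promoter sequence before their annotated starts is shown for that reason. Promoter windows, 250 bases before to 50 after a start, were taken from RefSeq (GRCm38.p6) and matched 8 of the 9 genes with 14 windows. The FOXO core motif TGTTTAC, read on either strand (GTAAACA on the other), lay in 1 window of Bcl2l11 and 1 of Bbc3 and in none of the other 6 genes with a window (Pmaip1 was the gene not matched), against 3.65% of all 32851 promoter windows. The capitals mark the match. The Bcl2l11 stretch is chr2:128125788-128125877 on the plus strand, with the motif beginning 227 bases before the start, and the Bbc3 stretch is chr7:16310034-16310160 on the plus strand, with the motif beginning 167 bases before the second listed start. No base of either stretch lies in an annotated exon.
Bcl2l11: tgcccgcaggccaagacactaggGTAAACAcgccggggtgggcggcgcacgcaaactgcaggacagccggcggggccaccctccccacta
Bbc3: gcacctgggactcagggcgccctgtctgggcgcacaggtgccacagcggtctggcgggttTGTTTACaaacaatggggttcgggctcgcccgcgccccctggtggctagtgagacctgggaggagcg
Among the 14 windows the GC box GGGCGG (either strand) lay in 10, from 7 genes, against 35.7% of all windows, and CCAAT in 6, from 4 genes, against 37.4%. The E-box CACGTG lay in 2 windows, 1 of Bbc3 and 1 of Bax, against 7.15% of all. TATAAA and TGACGTCA lay in none of the 14, against 13.6% and 1.79% of all windows. These matches describe the letters in the windows and were tied to no binding data. The 2 genes are on different chromosomes, Bcl2l11 at chr2:128126038-128162547 and Bbc3 at chr7:16308393-16318205 (GRCm38).

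The labels were compared with the data before any result was drawn. Levels in CPM are counts scaled by the library total multiplied by its TMM factor (trimmed mean of M-values), unless library size alone is named. Kit ranged from 288 to 532 CPM in LSK and from 4.77 to 73.2 CPM in CD11b+ libraries. Itgam, which encodes CD11b, ranged from 31.6 to 114 CPM in LSK and from 151 to 1664 CPM in the CD11b+ fractions. Both markers thus separated the fractions. In LSK, Ptpn11 itself stood at 111 and 116 CPM in MxCre, 64.1 and 60.5 CPM in Ptpn11D61Y/+ and 153, 140 and 152 CPM in S3 libraries, lowest where 1 allele is silenced. In CD11b+ libraries the genotypes overlapped in Ptpn11. The number of a library did not always mark 1 animal. Xist, transcribed from the inactive X chromosome of females, had 2834 counts in the BM library of MxCre 2 but 9 and 4 in its LSK and spleen libraries, 4753 in the spleen library of Ptpn11D61Y/+ 1 but 17 and 1 in its LSK and BM libraries, and 1 in the LSK library of S3 540 but 2780 and 712 in its BM and spleen libraries. Libraries with and without Xist cannot come from 1 mouse, so the libraries were fitted as separate samples, and p-values measure the spread between these libraries. The CD11b+ libraries BM MxCre 1, spleen MxCre 1 and BM S3 815 had the fewest detected genes, 14885, 14641 and 14761. Some, not all, of the results that rest on them are also given without them.

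Erythroid RNA was present in the CD11b+ fractions. The 13 erythroid genes, led by Hba-a1, summed to between 14847 and 224350 CPM in BM CD11b+, to between 1152 and 30129 CPM in spleen CD11b+ and to between 96.9 and 1627 CPM in LSK libraries. The part of this RNA in the differences between fractions was not tested. In such bulk samples, fewer cells of a type and less RNA per cell cannot be told apart.

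Compared per kilobase of exon, the effectors Bax and Bak1 led the group in LSK and Pmaip1 (NOXA) had the highest mean in both CD11b+ fractions, though not in every library. Mean levels over the 7 LSK libraries were 22.2 ± 4.21 CPM per kb (SD) for Bax, 20.98 ± 5.24 for Bak1 and 13.4 ± 3.86 for Bid, followed by Bad at 6.07, Bbc3 at 5.86, Pmaip1 at 3.34, Bcl2l11 at 2.22, Bok at 1.65 and Bmf at 1.27 CPM per kb. In BM CD11b+ the order began with Pmaip1 at 53.1 ± 56.8 CPM per kb, Bax at 51.4 ± 8.88 and Bak1 at 36.6 ± 11.1, and the means of Pmaip1 and Bax differed by less than the spread of Pmaip1. BM MxCre 1 had 179 CPM per kb of Pmaip1, and without it (a setting chosen after the data were seen) the BM order was Bax at 49.7 ± 8.32, Bak1 at 39.2 ± 9.66 and Pmaip1 at 32.1 ± 12.7 CPM per kb (SD, n = 6). In spleen CD11b+ it began with Pmaip1 at 219 ± 162 CPM per kb, Bax at 79.2, Bak1 at 39.1 and Bbc3 at 36.9. Pmaip1 was highest in the MxCre libraries there (500.0 and 304 CPM per kb), and in S3 540 and S3 640 it was below Bax, at 84.3 against 87.9 and 35.7 against 52.5 CPM per kb. Bok, the third effector, was last in both CD11b+ fractions, at 1.39 and 0.354 CPM per kb.

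Summed over the 9 genes, the per-length level was 61.2 to 94.3 CPM per kb in LSK, 158 to 342 in BM CD11b+ and 167 to 723 in spleen CD11b+ libraries. Every CD11b+ library lay above every LSK library on this scale, which uses TMM factors. With library size alone (a setting added after the data were seen) the sums were 91.4 to 133 CPM per kb in LSK, 119 to 247 in BM and 176 to 537 in spleen CD11b+, so BM and LSK overlapped. Pmaip1 alone made up 4.27% ± 1.43 of the sum in LSK, 22.3% ± 14.0 in BM CD11b+ and 46.1% ± 16.4 in spleen CD11b+ (SD, n = 7 each). The BH3-only share of the sum had a median of 41.1% in LSK (37.0 to 48.2), 53.9% in BM CD11b+ (44.6 to 74.6) and 64.4% in spleen CD11b+ (49.4 to 85.3). The summed effectors had medians of 40.1, 86.8 and 121 CPM per kb in the same order.

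**Figure D1:**
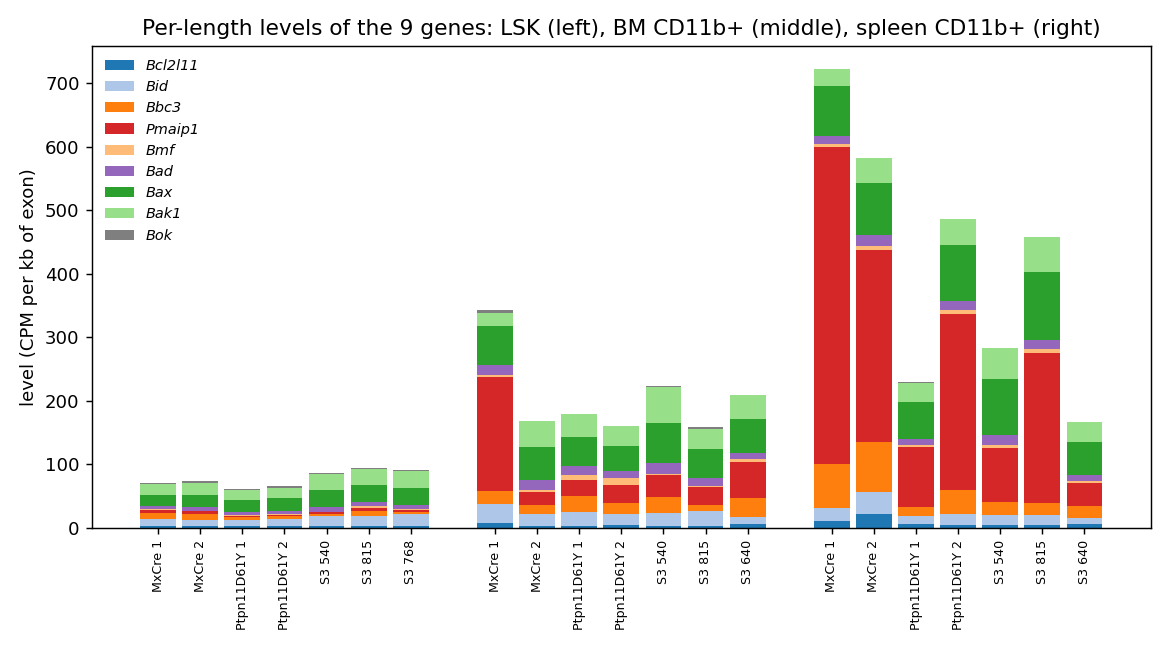
Stacked bars give the level of each of the 9 genes in CPM per kilobase of exon (vertical axis, starting at 0) in each of the 21 libraries (horizontal axis), grouped by fraction. The LSK bars end between 61.2 and 94.3 and the spleen bars between 167 and 723, with Pmaip1 the block that varies most in the CD11b+ libraries.

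The first question was how the 9 genes were set in stem and progenitor cells compared with CD11b+ myeloid cells. Of the 9, 8 were higher in BM CD11b+ than in LSK by the quasi-likelihood test of edgeR, with p-values adjusted by Benjamini and Hochberg's method over all genes and the genotypes averaged, while 26.8% of all tested genes were called higher and 31.6% lower (58.4% in either direction). In spleen CD11b+ against LSK, 7 were called higher and Bok lower, with 28.3% of all genes higher and 31.6% lower (59.9%). Spleen against BM CD11b+ gave 3 higher and 1 lower, with 6.56% and 7.40% of all genes (14.0%, 2730 genes). With the S3 numbers shared by BM and spleen taken as a block, which was added after the data were seen, that comparison gave 4 higher and 1 lower and 4346 genes called. The median log2 fold change of the 9 genes was 1.19 for BM CD11b+ against LSK, 1.69 for spleen CD11b+ against LSK and 0.17 for spleen against BM CD11b+, and that of all tested genes was -0.17, -0.14 and 0.07. These directions rest on scaling by the trimmed mean of M-values (TMM). With library size alone the all-gene median moved to -0.99 and -0.90 in the comparisons with LSK, and the called genes moved from 5243 higher and 6175 lower to 2706 and 9856 in BM CD11b+, and from 5537 and 6183 to 3193 and 9375 in spleen CD11b+.

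**Figure D2:**
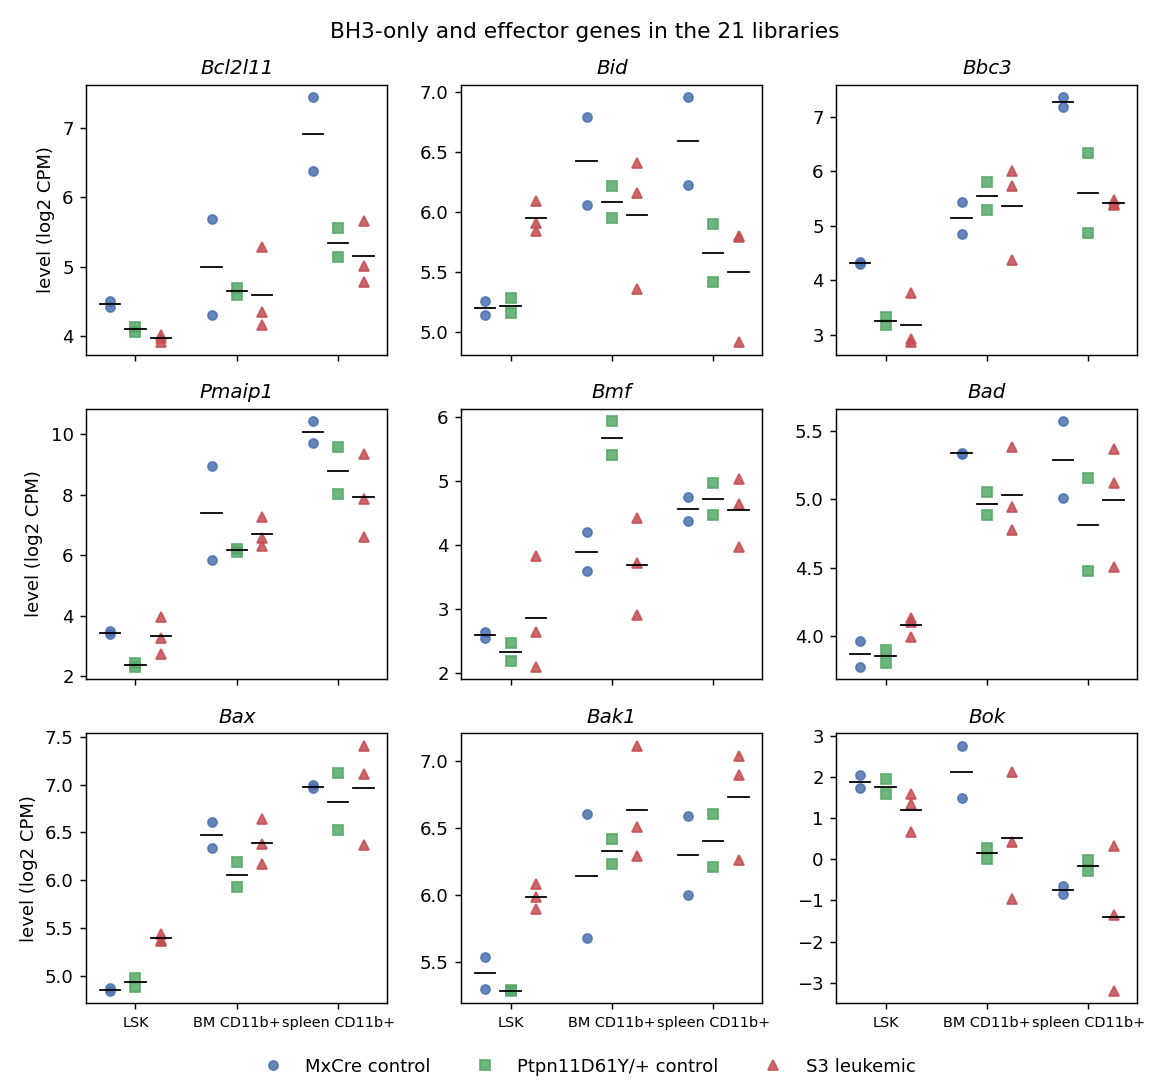
Each panel gives the level of a gene in log2 CPM (vertical axis) in every library, arranged by fraction (horizontal axis), with the genotypes in different colours and short lines for group means. Pmaip1 runs from 2.31 to 10.42 log2 CPM with no LSK library as high as any CD11b+ library, while the Bid values of the fractions overlap.

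Bcl2l11, a direct activator of BAX and BAK, was lowest in LSK. Its level was 4.50 and 4.41 log2 CPM in MxCre, 4.13 and 4.06 in Ptpn11D61Y/+ and 3.90, 4.01 and 3.97 in S3 libraries of LSK. In BM CD11b+ libraries it was 5.70 and 4.30 log2 CPM in MxCre, 4.60 and 4.69 in Ptpn11D61Y/+ and 4.34, 4.16 and 5.28 in S3 540, 815 and 640. In spleen CD11b+ libraries it was 6.38 and 7.45 log2 CPM in MxCre, 5.55 and 5.14 in Ptpn11D61Y/+ and 5.01, 4.78 and 5.65 in S3 540, 815 and 640. Every spleen library was above every LSK library, and the BM libraries overlapped with both. The spleen to LSK difference was 1.69 on the log2 scale (SE 0.26, adjusted p = 6.32e-05 by edgeR's quasi-likelihood test), the spleen to BM difference 1.03 (SE 0.26, adjusted p = 0.0152) and the BM to LSK difference 0.66 (SE 0.25, adjusted p = 0.0359). The first was 2.55 in MxCre, 1.27 in Ptpn11D61Y/+ (adjusted p = 0.0715) and 1.24 in S3 libraries. The last was the least firm. It was lost in 10 of 14 fits that each left out 1 library, kept only without LSK S3 815, BM MxCre 2, BM S3 540 or BM S3 815, and was not called without the 3 libraries of fewest genes (0.42, adjusted p = 0.0825) or with the library numbers as a block (0.52, adjusted p = 0.0925 by edgeR). With library size alone it was -0.16. The spleen to BM difference was lost without spleen MxCre 2, BM Ptpn11D61Y/+ 1 or spleen Ptpn11D61Y/+ 1 (lowest value 0.82, highest adjusted p = 0.0571).

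Bbc3, a target of p53 and of FOXO factors, showed a wider gap. Its LSK level was 4.34 and 4.29 log2 CPM in MxCre, 3.18 and 3.33 in Ptpn11D61Y/+ and 2.93, 3.77 and 2.86 in S3 540, 815 and 768. The BM CD11b+ libraries had 5.43 and 4.86 log2 CPM in MxCre, 5.81 and 5.30 in Ptpn11D61Y/+ and 5.73, 4.36 and 6.01 in S3 540, 815 and 640. The spleen CD11b+ libraries had 7.19 and 7.36 log2 CPM in MxCre, 4.87 and 6.33 in Ptpn11D61Y/+ and 5.47, 5.39 and 5.40 in S3 540, 815 and 640. No CD11b+ library was as low as the highest LSK library. The BM to LSK difference was 1.82 (SE 0.28, adjusted p = 6.28e-05) and the spleen to LSK difference 2.56 (SE 0.29, adjusted p = 3.07e-06). The former was 0.86 in MxCre (adjusted p = 0.175 by edgeR), 2.32 in Ptpn11D61Y/+ and 2.28 in S3 libraries, and so was not called in MxCre libraries. Spleen against BM was 0.73 (SE 0.27, adjusted p = 0.0827), made of 2.10 in MxCre, 0.20 in Ptpn11D61Y/+ and -0.11 in S3 libraries. With the S3 numbers shared by BM and spleen as a block it was called (0.78, adjusted p = 0.0424 by edgeR), and the S3 part was then 0.041.

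Bid, the BH3-only protein cleaved by caspase-8, was the member whose fractions differed least clearly. Its LSK level was 5.26 and 5.14 log2 CPM in MxCre, 5.16 and 5.28 in Ptpn11D61Y/+ and 5.84, 5.90 and 6.10 in S3 540, 815 and 768. In BM CD11b+ it was 6.79 and 6.06 log2 CPM in MxCre, 6.22 and 5.95 in Ptpn11D61Y/+ and 6.16, 6.41 and 5.36 in S3 540, 815 and 640. In spleen CD11b+ it was 6.23 and 6.96 log2 CPM in MxCre, 5.41 and 5.90 in Ptpn11D61Y/+ and 5.80, 5.79 and 4.91 in S3 540, 815 and 640. The fractions overlapped, and S3 640 was the lowest library in both CD11b+ fractions. The S3 640 libraries also stood apart in other RNA, whose part was not tested. The BM library had 19075 CPM of the 10 mature neutrophil genes against 76999 to 119820 CPM in the other 6, and 14847 CPM of the 13 erythroid genes against 50078 to 224350 CPM. The spleen library had 2309 CPM of the 12 genes of the G2 and M phases against 282 to 612 CPM in the other 6, and 30129 CPM of the erythroid genes against 1152 to 15952 CPM. BM against LSK was 0.74 (SE 0.21, adjusted p = 0.00755), made of 1.27 in MxCre, 0.87 in Ptpn11D61Y/+ (adjusted p = 0.129) and 0.092 in S3 libraries (adjusted p = 0.851), and it turned to -0.14 with library size alone. Spleen against LSK was 0.50 (SE 0.21, adjusted p = 0.0526) over the genotypes, made of 1.44 in MxCre, 0.46 in Ptpn11D61Y/+ and -0.39 in S3 libraries, and it too turned, to -0.28, with library size alone. The library numbers as a block gave 0.61 for it (adjusted p = 0.0142 by edgeR), although they did not mark 1 animal throughout. Exons of Bid overlap those of Bcl2l13 on the other strand, and since the use of strand in counting is not stated, reads there could belong to either gene.

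Pmaip1, which encodes NOXA, a p53 and stress target that binds MCL-1, spanned the widest range. Its LSK level was 3.50 and 3.38 log2 CPM in MxCre, 2.31 and 2.45 in Ptpn11D61Y/+ and 2.73, 3.97 and 3.26 in S3 540, 815 and 768. In BM CD11b+ it was 8.94 and 5.85 log2 CPM in MxCre, 6.10 and 6.21 in Ptpn11D61Y/+ and 6.56, 6.29 and 7.27 in S3 540, 815 and 640. In spleen CD11b+ it was 10.42 and 9.70 log2 CPM in MxCre, 8.01 and 9.57 in Ptpn11D61Y/+ and 7.85, 9.34 and 6.61 in S3 540, 815 and 640. Neither CD11b+ fraction overlapped with LSK, and the pair of BM MxCre libraries differed by more than 3 on the log2 scale. Spleen exceeded LSK by 6.07 (SE 0.58, adjusted p = 6.42e-07), a 67.3-fold difference, and BM exceeded LSK by 3.93 (SE 0.52, adjusted p = 1.56e-05), or 15.3-fold. Spleen exceeded BM by 2.14 (SE 0.47, adjusted p = 0.00812), although the libraries of these fractions overlapped. Without the 3 libraries of fewest genes the differences were 5.92, 3.23 and 2.69.

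Bmf, a BH3-only protein bound to the cytoskeleton until released by stress, and Bad, which is held inactive by phosphorylation and 14-3-3 proteins, were also higher in the CD11b+ fractions. Bmf ranged from 2.11 to 3.83 log2 CPM in LSK, from 2.91 to 5.93 in BM CD11b+ and from 3.96 to 5.02 in spleen CD11b+. Its difference from LSK was 1.82 in BM (SE 0.31, adjusted p = 0.000144) and 1.98 in spleen (SE 0.31, adjusted p = 6.45e-05), with no overlap between spleen and LSK. The BM difference was 3.35 in Ptpn11D61Y/+ but 1.33 in MxCre (adjusted p = 0.0681 by edgeR) and 0.77 in S3 libraries (adjusted p = 0.199), so it was called in 1 genotype of 3. The highest Bmf values were those of the 2 Ptpn11D61Y/+ BM libraries, 5.40 and 5.93 log2 CPM. Bad ranged from 3.78 to 4.13 log2 CPM in LSK, from 4.78 to 5.38 in BM and from 4.47 to 5.57 in spleen CD11b+, with both CD11b+ fractions wholly above LSK. Its differences were 1.19 (SE 0.18, adjusted p = 6.84e-05) in BM and 1.14 (SE 0.18, adjusted p = 8.93e-05) in spleen. Exons of Bad overlap those of Gpr137 on the other strand.

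Among the effectors, Bax had the narrowest spread between libraries of a group when all fractions were pooled (in spleen Bak1 was narrower, 0.385 against 0.433 on the log2 scale) and rose stepwise over the fractions. Its lowest, median and highest levels were 4.84, 4.98 and 5.44 log2 CPM in LSK, 5.93, 6.34 and 6.64 in BM CD11b+ and 6.37, 6.99 and 7.41 in spleen CD11b+. LSK lay wholly below both CD11b+ fractions, which overlapped with each other. Bax was higher by 1.26 in BM (SE 0.17, adjusted p = 2.48e-05) and by 1.89 in spleen (SE 0.18, adjusted p = 5.20e-07) than in LSK, and by 0.63 in spleen than in BM (SE 0.17, adjusted p = 0.0225). The last was lost without BM MxCre 2, either BM Ptpn11D61Y/+ library or spleen Ptpn11D61Y/+ 2 (highest adjusted p = 0.0850). With library size alone the differences from LSK were 0.41 and 1.12, still called. Within the groups of LSK the pooled SD of Bax was 0.044 on the log2 scale, against 0.213 in BM and 0.433 in spleen CD11b+.

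Bak1, the effector that sits in the outer mitochondrial membrane, ranged from 5.28 to 6.08 log2 CPM in LSK, from 5.68 to 7.12 in BM CD11b+ and from 6.001 to 7.04 in spleen CD11b+. It was higher than in LSK by 0.85 in BM (SE 0.20, adjusted p = 0.00204) and by 0.94 in spleen (SE 0.20, adjusted p = 0.000867), with overlap in both. Within single genotypes the BM difference was 0.70 to 1.05, with no call. It was -0.01 with library size alone. The spleen difference was called only in Ptpn11D61Y/+ libraries (1.14, adjusted p = 0.0418 by edgeR). It was 0.91 in MxCre (adjusted p = 0.0563) and 0.78 in S3 libraries (adjusted p = 0.0605). Exons of Bak1 overlap those of Ggnbp1 on the other strand, and exons of Bax those of Gm45808 on the same strand.

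Bok was the exception. It ranged from 0.67 to 2.06 log2 CPM in LSK, from -0.97 to 2.77 in BM CD11b+ and from -3.20 to 0.32 in spleen CD11b+, with counts of 7 to 464 per library, the lowest of the 9 genes. Its spleen libraries lay wholly below LSK, with a log2 fold change of -2.25 (SE 0.57, adjusted p = 0.00317). Within single genotypes this difference was not called. It was -2.70 in MxCre (adjusted p = 0.0516 by edgeR) and -1.96 in Ptpn11D61Y/+ (adjusted p = 0.187). In S3 libraries it was -2.09 (adjusted p = 0.0765). Spleen against BM was -1.75 (SE 0.56, adjusted p = 0.0478), and it was lost in 11 of 14 fits that each left out 1 library, kept only without BM S3 640, spleen S3 815 or spleen S3 640. BM against LSK was -0.49 (SE 0.54, adjusted p = 0.449).

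**Figure D3:**
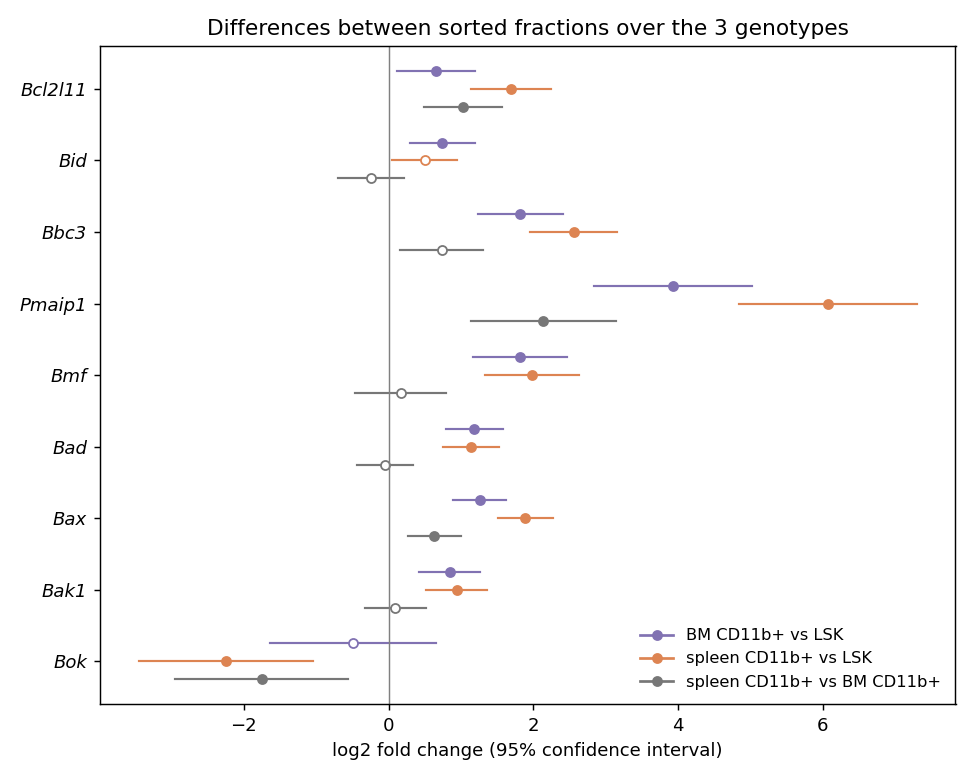
For each gene (vertical axis) the points give the log2 fold change between fractions averaged over the genotypes and the bars its 95% confidence interval (horizontal axis), one colour per comparison and filled points for called differences. The Pmaip1 points at 3.93 and 6.07 lie farthest to the right and the Bok point at -2.25 lies to the left of 0.

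Counted by separation, 4 of the 9 genes had every BM CD11b+ library above every LSK library, against 11.6% of all tested genes, and none below, against 19.9%. In that comparison 8 of the 9 genes had an unadjusted p under 0.05 by edgeR, against 63.2% of all genes. They were the 8 called ones, since a call requires it. For spleen CD11b+ the count was 6 above, against 12.2%, and 1 below, against 18.3%. These counts rest on TMM scaling. When libraries were scaled by size alone 1 gene, Pmaip1, stayed above LSK in BM (5.09% of all genes above and 33.5% below), while Bbc3, Bad and Bax overlapped with LSK. In spleen 3 genes, Bbc3, Pmaip1 and Bax, stayed above (6.05%, with 31.2% below) and Bok below. Between spleen and BM CD11b+ no member separated, against 0.414% and 0.240% of all genes, and no member was called within a single genotype. Over the 9 groups of fraction and genotype, Bcl2l11, Bbc3 and Pmaip1 were each highest in spleen MxCre libraries, with no overlap with the next group, spleen Ptpn11D61Y/+. For Bid, none of the 8 neighbouring pairs of groups in the order of means were free of overlap, and for Pmaip1, 4 of 8 were.

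The anti-apoptotic partners of these proteins were measured in the same libraries. Of the 8 anti-apoptotic genes listed, 7 were tested, and in spleen CD11b+ against LSK 5 were called higher and 2 lower, against 28.3% and 31.6% of all genes. Those with the largest differences were the A1 genes Bcl2a1b (log2 fold change 7.87), Bcl2a1a (6.98) and Bcl2a1d (6.69) and Mcl1 (2.13), and the lower ones, named after their values were seen, were Bcl2 (-1.32) and Bcl2l2 (-1.02). The A1 genes are near-identical copies, so reads could be split among them and their separate values are uncertain. In BM CD11b+ against LSK the count was also 5 higher and 2 lower (26.8% and 31.6% of all genes), with Bcl2a1b at 4.97, Bcl2l1, which encodes BCL-XL, at 3.80, Bcl2a1a at 3.66 and Bcl2a1d at 3.24. Spleen against BM gave 3 A1 genes higher and Bcl2l1 lower, at -2.13, against 6.56% and 7.40% of all genes.

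The lists of other genes around these proteins had members called in both directions, as had all tested genes, of which 28.3% were higher and 31.6% lower in spleen CD11b+ than in LSK. Of 17 transcription factors known to act on BH3-only or effector genes, 6 were higher and 3 lower in spleen CD11b+ than in LSK, among them Cebpb (6.58), Atf3 (5.69) and Ddit3 (2.88), the latter a factor of the unfolded protein response, and Myc (-2.80). Of 12 p53 target genes, 5 were higher and 3 lower, among them Fas (4.77), Sesn2 (2.77) and Cdkn1a (2.27), which encodes p21. Eda2r was called lower with 0 counts in 5 of the 7 spleen libraries, so its fold change is not given. Of 10 genes of the apoptosome and caspases, 4 were higher and 2 lower in spleen than in LSK, among them Birc3 (2.60) and Casp2 (-2.03). Of the 12 caspase-8 and mitochondrial partner genes, 3 were higher and 4 lower in spleen and the same numbers in BM CD11b+ against LSK, where 26.8% and 31.6% of all genes were called.

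The second question was what differed in leukemic S3 mice. In spleen CD11b+ cells Bcl2l11 and Bbc3 were lower in S3 than in MxCre libraries, and the other 7 genes did not pass the test. Both levels were given above by library. For Bcl2l11 the 3 S3 libraries (4.78 to 5.65 log2 CPM) lay below both MxCre libraries (6.38 and 7.45), a log2 fold change of -1.81 (SE 0.42, 95% interval -2.71 to -0.92, adjusted p = 0.0256 by edgeR's quasi-likelihood test), or 3.52-fold. For Bbc3 the S3 libraries were close to each other (5.39 to 5.47 log2 CPM) and below both MxCre libraries (7.19 and 7.36), a log2 fold change of -1.86 (SE 0.45, 95% interval -2.80 to -0.91, adjusted p = 0.0299), or 3.62-fold. Over all tested genes 4.19% were called, 2.67% lower and 1.51% higher. Bid at -1.08 (SE 0.35, adjusted p = 0.0830) and Pmaip1 at -1.76 (SE 0.75, adjusted p = 0.162) did not pass, though their S3 libraries also lay below both MxCre libraries. In all, 4 members had no overlap in this direction, against 12.9% of all genes, and none in the other, against 20.2%. The same 4 had an unadjusted p under 0.05, against 25.3%.

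The effectors showed no called difference in the same cells. Bax was 6.96 and 6.99 log2 CPM in MxCre and 7.11, 7.41 and 6.37 in S3 540, 815 and 640, a log2 fold change of 0.05 with a 95% interval from -0.56 to 0.66. Bak1 stood at 0.45 (interval -0.26 to 1.16) and Bok at -0.06 (interval -2.02 to 1.91). Bmf at 0.02 (interval -1.03 to 1.08) and Bad at -0.28 (interval -0.92 to 0.36) were likewise not called, and each of these 5 genes had overlapping groups. These intervals leave room for differences that the 2 and 3 libraries could not detect.

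The 2 calls depended on the libraries and on the fit. Leaving out each spleen MxCre or S3 library in turn gave -2.24 to -1.17 for Bcl2l11 with the call lost in 3 of 5 fits, those without MxCre 2, S3 540 and S3 815, and -1.93 to -1.75 for Bbc3 with the call lost in all 5 (adjusted p from 0.0552 to 0.0944). With only the spleen libraries of these groups fitted, Bcl2l11 was -1.87 (adjusted p = 0.194) and Bbc3 -1.93 (adjusted p = 0.109), and no gene of any kind was called. With library size alone they were -1.28 (adjusted p = 0.109) and -1.41 (adjusted p = 0.0848). DESeq2 called both, and Bid at -1.11 (adjusted p = 0.0252), but it also called more of all genes than edgeR (counts are given at the end). Without the 3 libraries of fewest genes edgeR gave -2.24 for Bcl2l11, -1.94 for Bbc3 and -1.39 for Bid. That fit, like those without 1 MxCre library, leaves a single spleen MxCre library, here MxCre 2, whose spread is assumed to be that of the other groups.

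**Figure D4:**
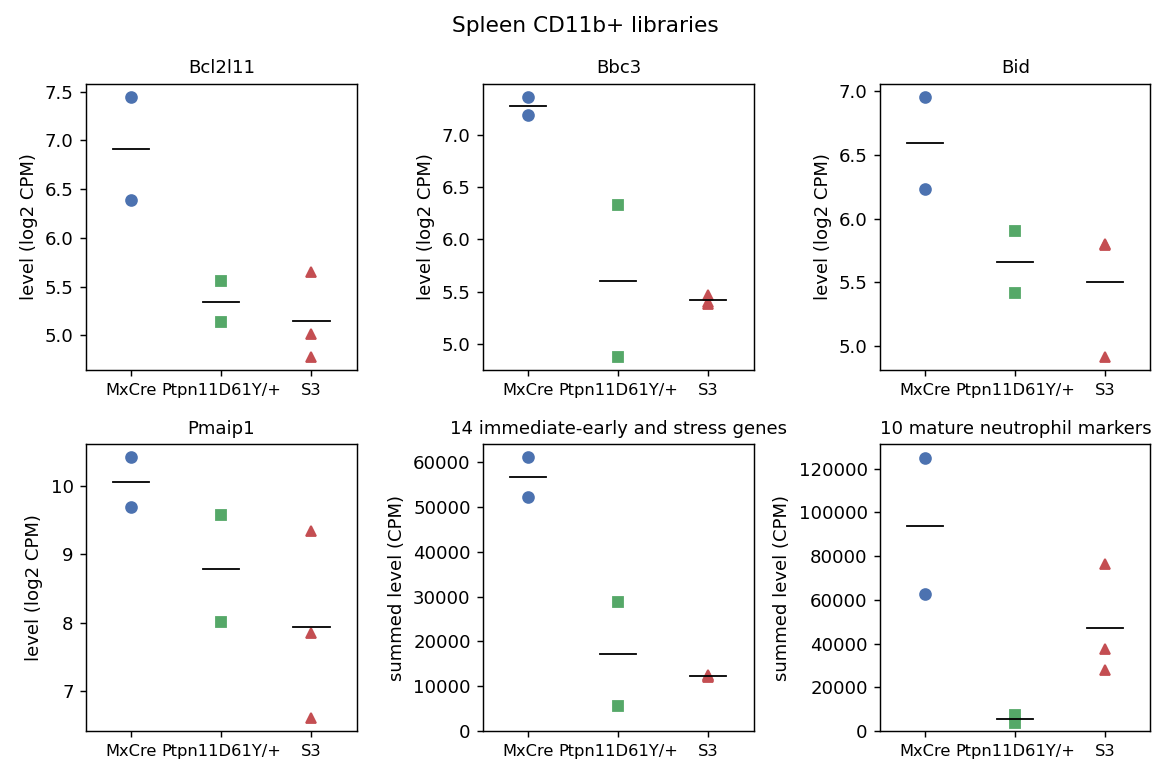
The panels give, for each spleen CD11b+ library by genotype (horizontal axis), the level of Bcl2l11, Bbc3, Bid and Pmaip1 in log2 CPM and the summed CPM of the immediate-early and mature neutrophil lists (vertical axes), with a point per library and a line at the group mean. The MxCre libraries lie above the others in each of the genes shown, Bcl2l11, Bbc3, Bid and Pmaip1, and they also hold the highest immediate-early sums, 52115 and 61160 CPM.

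Other signals in these libraries also differed, in either direction. The 14 immediate-early and stress genes, led by Zfp36, summed to 52115 and 61160 CPM in spleen MxCre, 5515 and 28723 CPM in Ptpn11D61Y/+ and 12119, 12237 and 12515 CPM in S3 libraries, with none of the genes at 0. Among them Nfkbia (log2 fold change -4.23) and Junb (-3.21) were called lower in S3 than in MxCre. The 10 mature neutrophil genes, led by S100a9, summed to 62665 and 125050 CPM in MxCre, 3532 and 7531 CPM in Ptpn11D61Y/+ and 76336, 37630 and 28015 CPM in S3 libraries. The 13 erythroid genes summed to 3428 and 1155 CPM in MxCre and to 14679, 15952 and 30129 CPM in S3 libraries. In Ptpn11D61Y/+ libraries their sums were 5193.8 and 1152.5 CPM. Rhag, Add2 and Trim10 were at 0 in MxCre 1. The 10 B cell genes, led by Cd79b, summed to 291 and 125 CPM in MxCre, 2046 and 2706 CPM in Ptpn11D61Y/+ and 1288, 964 and 90.6 CPM in S3 libraries. The 8 monocyte genes, led by Nr4a1, summed to 7073 and 6056 CPM in MxCre and to 2662, 2705 and 3369 CPM in S3. Nr4a1 alone stood at 5366 and 3860 CPM in MxCre and at 710, 1066 and 825 CPM in S3. Its log2 fold change was -2.41, those of the other monocyte genes ran from -0.22 (F13a1) to 1.09 (Ms4a6c), and none was called. The 12 genes of the G2 and M phases summed to 317 and 403 CPM in MxCre, against 612, 454 and 2309 CPM in S3. For the 7 dendritic cell genes the sums were 511 and 362 CPM in MxCre and 596, 968 and 576 CPM in S3. Most of these sums was Itgax, at 324 and 291 CPM in MxCre and 454, 649 and 551 CPM in S3, and no gene of this list was called. In Ptpn11D61Y/+ the monocyte sums were 2172 and 5095 CPM, those of G2 and M genes 340 and 282, and the dendritic 500 and 701. The part of these signals in the lower Bcl2l11 and Bbc3 was not tested. Immediate-early RNA was also high in BM MxCre 1, at 47034 CPM against 5922 to 12433 CPM in the other 6 BM libraries. The members did not all go the same way there. Pmaip1 (8.94 log2 CPM), Bcl2l11 (5.70), Bid (6.79) and Bok (2.77) had their highest BM values in it, and Bak1 (5.68) its lowest. Bbc3 (5.43), Bmf (3.59), Bad (5.34) and Bax (6.61) lay within the range of the other BM libraries. That library also stood apart in cell markers. Its 9 macrophage genes, led by C1qa, summed to 16089 CPM against 348 to 2661 CPM in the other 6, its 12 genes of the G2 and M phases to 226 CPM against 1040 to 3123 CPM and its 6 immature neutrophil genes, led by Mpo, to 795 CPM against 2578 to 4920 CPM, with none of these genes at 0 in it. Their part in its levels of the members was not tested.

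Of the other listed genes, the anti-apoptotic Mcl1 was also lower in S3 than in MxCre spleen CD11b+ cells. Its level was 2139 and 3680 CPM in MxCre, 536 and 1125 CPM in Ptpn11D61Y/+ and 817, 994 and 616 CPM in S3 540, 815 and 640, a log2 fold change of -1.85 (SE 0.43, adjusted p = 0.0255). It was the 1 of 7 anti-apoptotic genes called, with 4.19% of all genes called. All 5 called transcription factors of 17 were lower, Cebpb (-4.15), Ddit3 (-2.71), Atf4 (-1.78), Rela (-1.17) and, named after its value was seen, Runx1 (-1.05). Of 22 genes that act on these proteins after translation, 3 were lower and 1 higher, the kinase genes Pim1 (-3.85) and Pim3 (-2.99), whose products phosphorylate BAD, and the 14-3-3 genes Ywhaz (-1.09) and Ywhag (0.96). Cdkn1a (-2.23) was the 1 of 12 p53 targets called and Birc3 (-1.91) the 1 of 10 apoptosome and caspase genes, and none of the 12 partner genes was called. Bik, a further BH3-only gene, had 0 counts in both MxCre libraries, 7 and 40 in Ptpn11D61Y/+ and 19, 22 and 3 in S3 540, 815 and 640, so it was called higher on very few reads.

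The comparison between the controls shows how far MxCre libraries stood from the other control genotype. It shares the MxCre libraries with the comparison above, so the values are given side by side only. In spleen CD11b+ cells Bcl2l11 was -1.65 in Ptpn11D61Y/+ against MxCre libraries (SE 0.48, adjusted p = 0.0552) and Bbc3 -1.50 (SE 0.50, adjusted p = 0.0872), beside -1.81 and -1.86 in S3. Bid was -0.96 (adjusted p = 0.149) beside -1.08, and Pmaip1 -1.11 (adjusted p = 0.421) beside -1.76. No member was called by edgeR, and 3 had an unadjusted p under 0.05. Of all genes edgeR called 5.11%, 3.02% lower, and 24.7% had an unadjusted p under 0.05. DESeq2 and limma-voom each called Bcl2l11 and Bbc3, and each also called more of all genes than edgeR (counts are given at the end). Without spleen MxCre 1 edgeR gave -2.08 for Bcl2l11, a fit with MxCre 2 alone in its group and its spread taken from the others. Both Ptpn11D61Y/+ libraries lay below both MxCre libraries in 4 members, against 21.4% of all genes, and above them in Bok, against 34.5%. Mcl1 was called lower here too, at -1.81 (SE 0.49, adjusted p = 0.0430).

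S3 against Ptpn11D61Y/+ libraries of spleen gave no called member by edgeR and none with an unadjusted p under 0.05 (8.88% of all genes), with 0.00511% of all genes called. All 9 members overlapped, while 9.50% of all genes separated upward and 12.2% downward. Bcl2l11 was -0.16 (95% interval -1.06 to 0.73) and Bbc3 -0.36 (interval -1.31 to 0.59). The lower levels of S3 libraries were thus measured against MxCre libraries, and against the other control the intervals included 0. With both controls averaged, the differences of S3 were -0.99 for Bcl2l11 and -1.11 for Bbc3, neither called.

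In LSK cells no member was called in S3 against MxCre libraries by edgeR, DESeq2 or limma-voom, and 1, Bbc3, had an unadjusted p under 0.05 (3.97% of all genes), with 0.0307% of all genes called. Separation of the libraries was common among all genes here. The S3 libraries lay above both MxCre libraries in Bid, Bad, Bax and Bak1, against 29.1% of all genes, and below them in Bcl2l11, Bbc3 and Bok, against 28.9%. The log2 fold changes were 0.75 for Bid (95% interval -0.02 to 1.52), 0.54 for Bax (-0.08 to 1.15), 0.57 for Bak1, -0.50 for Bcl2l11 (-1.39 to 0.39) and -1.07 for Bbc3 (-2.01 to -0.13). Bmf and Pmaip1 overlapped, with S3 815 the highest library of both, at 3.83 and 3.97 log2 CPM.

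The pooled SD within groups was lower in LSK than in both CD11b+ fractions for 8 of the 9 genes, the exception being Bmf (0.632 against 0.606 in BM and 0.439 in spleen). In LSK the pooled SD of Bcl2l11 was 0.055 on the log2 scale against 0.654 in BM and 0.515 in spleen CD11b+. When only the 5 LSK libraries of S3 and MxCre were fitted, edgeR called 4700 genes and 4 members, against 6 genes with all 21 libraries fitted. The number of genes tested in the smaller fit is not given here, so the share of all genes cannot be set beside these members. They were Bcl2l11 lower (-0.53, adjusted p = 0.0115) and Bid (0.71, adjusted p = 0.00869), Bax (0.50, adjusted p = 0.00736) and Bak1 (0.54, adjusted p = 0.0166) higher. Bbc3 was not among them (adjusted p = 0.0612). The immediate-early sum was 15784 and 13121 CPM in MxCre and 4122, 3737 and 1042 CPM in S3 libraries of LSK. Other lists also separated these groups. S3 libraries were higher in immature neutrophil genes (4441 to 6163 against 1647 and 2047 CPM, led by Mpo), in genes of the G2 and M phases (1750 to 1994 against 1311 and 1365 CPM, led by Mki67) and in megakaryocyte genes (318 to 447 against 179 and 189 CPM, led by Itga2b). They were lower in stem and progenitor genes (1174 to 1332 against 1582 and 1609 CPM, led by Kit), erythroid genes (96.9 to 298 against 893 and 1627 CPM), mature neutrophil genes (689 to 1242 against 1927 and 2261 CPM) and B cell genes (43.1 to 82.9 against 112 and 166 CPM), and no gene of these lists was at 0. The part of all these signals in the differences was not tested.

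Among the controls in LSK, Bbc3 was lower in Ptpn11D61Y/+ than in MxCre libraries by a log2 fold change of -1.06 (SE 0.50, adjusted p = 1), and no member was called, with 0.0614% of all genes called, while 1 member had an unadjusted p under 0.05 (1.69% of all genes). DESeq2 and limma-voom called none either. Both Ptpn11D61Y/+ libraries lay below MxCre in 5 members, against 29.4% of all genes, and above in Bax, against 28.3%. With only these 4 libraries fitted by edgeR, Bcl2l11 (-0.35, adjusted p = 0.0355), Bbc3 (-1.05, adjusted p = 0.000861) and Pmaip1 (-1.05, adjusted p = 0.00211) were called lower. They were among 2508 genes called, against 12 with all 21 libraries fitted, and the number tested in the smaller fit is not given here. Among other lists that separated these groups, Ptpn11D61Y/+ libraries were lower in mature neutrophil genes (383 and 327 against 2261 and 1927 CPM). The same held for erythroid genes (168 and 142 against 1627 and 893 CPM) and macrophage genes (28.2 and 21.7 against 79.3 and 102 CPM). Higher were megakaryocyte genes (493 and 380 against 189 and 179 CPM) and immature neutrophil genes (2760 and 2715 against 2047 and 1647 CPM). The part of these signals was not tested. In S3 against Ptpn11D61Y/+ libraries of LSK no member was called or had an unadjusted p under 0.05, with 0.0972% of all genes called and 5.74% under that unadjusted p. The S3 libraries lay above both Ptpn11D61Y/+ libraries in Bid, Pmaip1, Bad, Bax and Bak1, against 32.0% of all genes, and below them in Bcl2l11, against 27.5%. Bid was 0.73 (unadjusted p = 0.0620 by edgeR) and Bak1 0.71 (unadjusted p = 0.0529).

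In BM CD11b+ cells no member differed between S3 and MxCre libraries by edgeR, DESeq2 or limma-voom, none had an unadjusted p under 0.05, and edgeR called 0% of all genes (15.5% had an unadjusted p under 0.05). The groups overlapped in all 9 genes, while 5.74% of all genes separated upward and 5.49% downward. In Pmaip1 the pair of MxCre libraries spanned the S3 values, with 8.94 and 5.85 in MxCre and 6.56, 6.29 and 7.27 log2 CPM in S3 libraries. Without the 3 libraries of fewest genes, which leaves MxCre 2 alone in its group and takes its spread from the others, Pmaip1 was 1.12 and Bbc3 1.03, neither called.

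Between the BM controls 2 of the 9 members had an unadjusted p under 0.05 and none was called by edgeR. The level of Bmf was 3.59 and 4.20 log2 CPM in MxCre, 5.40 and 5.93 in Ptpn11D61Y/+ and 3.72, 2.91 and 4.43 in S3 540, 815 and 640 libraries, so both Ptpn11D61Y/+ libraries were above all others. These libraries also held the highest BM sums of the 10 B cell genes, led by Cd79b, 1852 and 2489 CPM against 318 and 1467 CPM in MxCre and 607, 748 and 377 CPM in S3 540, 815 and 640, with none of the genes at 0, and the part of this RNA was not tested. Ptpn11D61Y/+ against MxCre was 1.76 (SE 0.56, unadjusted p = 0.00616 and adjusted p = 0.164 by edgeR), where edgeR called 0% of all genes and 22.6% had an unadjusted p under 0.05. DESeq2 called it (1.65, adjusted p = 0.0378), but also called many other genes in this comparison (counted at the end), and limma-voom called no member. Pmaip1 was the other member with an unadjusted p under 0.05, at -1.94 (adjusted p = 0.206). It was called without BM MxCre 2 (-2.76, adjusted p = 0.0347 by edgeR), with MxCre 1 alone in its group and its spread taken from the others, and was 0.33 without BM MxCre 1. In this comparison 1 member had no overlap upward, against 38.7% of all genes, and 3 downward, against 18.8%. Bmf in S3 against Ptpn11D61Y/+ libraries was -1.87 (unadjusted p = 0.00153, adjusted p = 0.425 by edgeR), with 0% of all genes called. Bmf separated downward in it, against 18.2% of all genes, and Pmaip1 upward, against 7.90%.

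**Figure D5:**
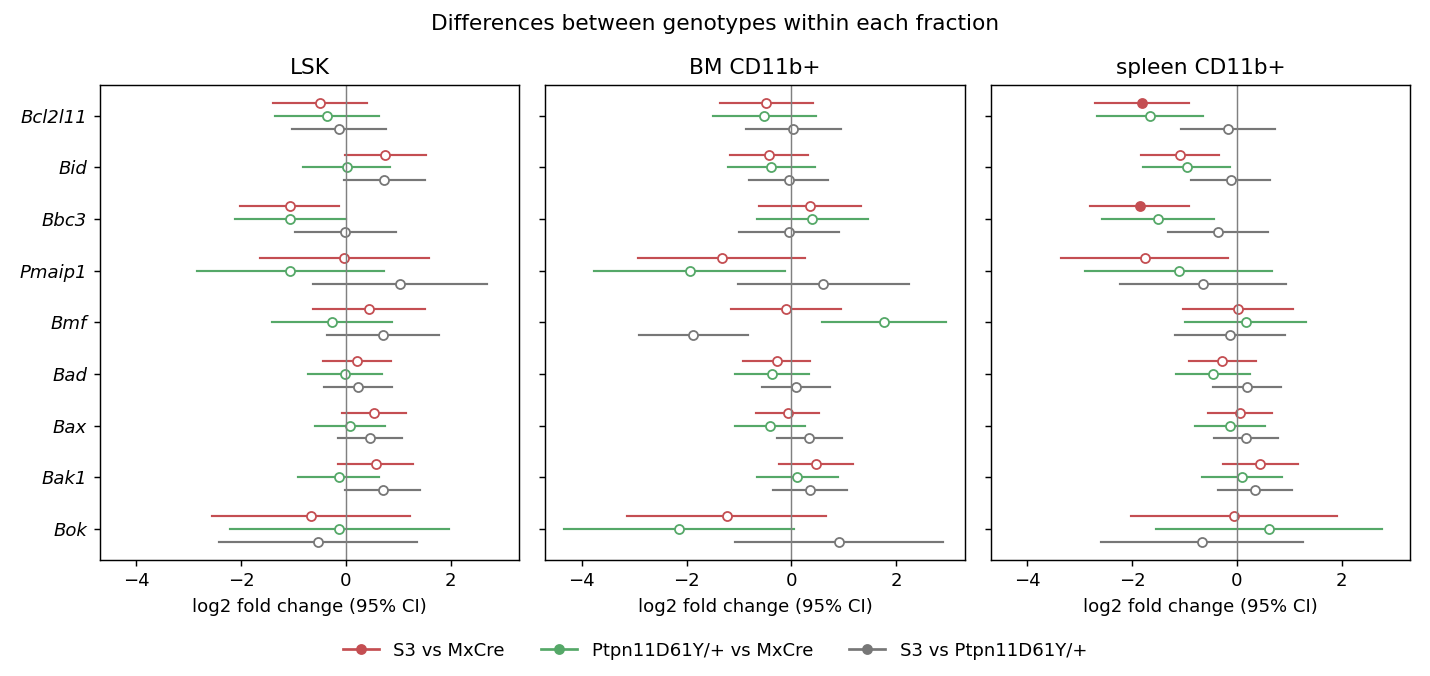
Each panel is a fraction and gives the log2 fold change of each gene (vertical axis) with its 95% confidence interval (horizontal axis) for the 3 comparisons of genotypes, with filled points for called differences. In spleen CD11b+ the intervals of Bcl2l11 and Bbc3 for S3 against MxCre end at -0.92 and -0.91, while those for S3 against Ptpn11D61Y/+ include 0.

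Whether the S3 difference itself depended on the fraction was tested with an interaction term. No member passed in spleen against LSK (2 with an unadjusted p under 0.05, against 13.4% of all genes, and 0.00511% of all genes called) or in BM against LSK (also 2, against 8.12%, and 0% of all genes called). The smallest p was that of Bid, whose S3 against MxCre difference was lower in spleen than in LSK by a log2 difference of -1.83 (SE 0.51, unadjusted p = 0.00239, adjusted p = 0.181 by edgeR's quasi-likelihood test). The other was Bcl2l11 with -1.32 (unadjusted p = 0.0444, adjusted p = 0.365 by edgeR). In BM against LSK, Bbc3 was 1.42 and Bid -1.18 (both adjusted p = 0.609 by edgeR). DESeq2 called Bid in the first interaction (-1.76, adjusted p = 0.0300) and no member in the second, and limma-voom called none. In both interactions DESeq2 also called more of all genes than edgeR (counted at the end).

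As a description of pattern, the genes most like the members over the 21 libraries were sought by Pearson's r of log2 CPM among 8766 well-expressed genes. These values mix fraction, genotype and library quality, and the libraries are not independent points of 1 population. Bcl2l11 was most like Rab11fip1 (r = 0.969), Plek and Fhod1, and Bbc3 most like Cdkn1a (0.961), the cell-cycle inhibitor gene, Atf3 (0.961) and Id3 (0.950). Pmaip1 was most like Slc15a4 (0.9751), Ripk2 (0.974) and Arl4c (0.970). The first genes for 5 further members were Icosl for Bmf (0.899), Elob for Bad (0.978), Capzb for Bax (0.969), Ciao2a for Bak1 (0.955) and Cxxc5 for Bok (0.885).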

How the data were processed

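The authors trimmed 100 bp paired-end reads with Trim Galore 0.6.5 and aligned them to GRCm38 with STAR 2.5.3a, per the study's methods and the submitters' processing notes, and deposited raw counts per gene for each of 21 libraries. The library kit is given as a stranded mRNA kit in the methods and differently in the labels, and the counting program, annotation release and treatment of strand and multi-mapped reads are not given in the sources used here. The methods speak of 3 mice per genotype for CD11b+ cells, while the labels used here give 2 MxCre libraries per fraction. Nothing in the labels says more than that libraries are separate samples, so p-values may measure partly technical spread.

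The 9 members and all gene lists were chosen with earlier results of these data known. Of 45706 gene identifiers, 45143 were paired with symbols. Genes were kept by edgeR's filterByExpr (minimum count 10, total 15), which left 19555 genes and 99.99% of counts. All 21 libraries were fitted together with a coefficient per group in edgeR 4.0.16 (R 4.3.3, TMM, robust quasi-likelihood), contrasts of fractions weighting genotypes equally, and calls were made at 0.05 after Benjamini-Hochberg adjustment over all tested genes. Levels are TMM-scaled log2 CPM with a prior count of 2, or CPM per kilobase of the union of annotated exons. All 9 members were named in each comparison, up to 4 called genes per list by size of change, and the 3 genes most like each member by Pearson's r. DESeq2 1.42.0 and limma 3.58.1 (voom) served as alternatives. On simulated counts for 19555 genes with 200 changed, S3 against MxCre in spleen recovered 0, 29 and 122 genes at log2 changes of 1, 2 and 4, and spleen against LSK 3, 105 and 179.

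Libraries of the same number were checked for pairing by the correlation of their deviations from group means. They ranged from -0.173 to 0.407, and Xist counts went against a shared animal for 3 numbers, so the unpaired fit was kept. The 3 S3 pairs of BM and spleen were all above 0.1 (0.108, 0.333 and 0.407), so spleen against BM was also fitted with these numbers as a block. No pair of libraries of a group was alike within counting noise. In the labels "No treatment" stands where the methods give poly I:C. No protein sequences were used here. Some genes that the naming rule selects are not reported here.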

Additional observations from a re-analysis of the deposited data

Results flagged for a closer look

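The difference of Bid between S3 and MxCre libraries went in opposite directions in LSK and in spleen CD11b+ cells. In LSK every S3 library (5.84, 5.90 and 6.10 log2 CPM) was above both MxCre libraries (5.26 and 5.14), and in spleen every S3 library (5.80, 5.79 and 4.91) was below both (6.23 and 6.96). The spleen minus LSK difference of the log2 fold changes was -1.83 (SE 0.51, adjusted p = 0.181 by edgeR's quasi-likelihood test over all genes, unadjusted p = 0.00239), so it did not pass the correction. With Ptpn11D61Y/+ libraries in place of MxCre it was -0.85 (adjusted p = 0.9999 by edgeR), so its size rests on the MxCre libraries, and with both controls averaged -1.34 (adjusted p = 0.393). It was -1.76 with DESeq2 (adjusted p = 0.0300), which also called more of all genes than edgeR in this comparison (counted below). Without the 3 libraries of fewest detected genes it was -2.15. That setting was chosen after the data were seen and leaves MxCre 2 alone in its spleen group, with its spread assumed to be that of the other groups. Exons of Bid overlap those of Bcl2l13 on the other strand, and the part of that gene's reads was not tested.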

How the results depend on the processing

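Over the alternatives other than leaving out each library in turn, 212 counts and levels stayed within set limits and 94 moved past them. These limits are not given here, so not every change is listed below. Of the values of single members 902 kept their direction and their side of the threshold, 66 changed sign, 57 lost a call and 24 gained one. Among members called in a comparison, the sign changed only in Bcl2l11, Bid and Bak1 of BM against LSK with library size alone. Where a setting changed a value, the cause was not tested, except that fewer libraries or genes entered some fits. A value beside a gene name is a log2 difference unless another unit is given. With DESeq2, the genes called were 128 in LSK, 965 in BM and 3409 in spleen for S3 against MxCre, 103 in LSK, 1864 in BM and 3381 in spleen for Ptpn11D61Y/+ against MxCre, 4253 for spleen against BM, 827 for the spleen minus LSK interaction, and 141 for the BM minus LSK interaction. Members called were then 1 in BM and 2 in spleen for Ptpn11D61Y/+ against MxCre, and 1 for the spleen minus LSK interaction. Signs were opposite for Bmf -0.012 in spleen for S3 against MxCre. With limma-voom, the genes called were 21 in LSK, 23 in BM and 1362 in spleen for S3 against MxCre, 5 in LSK, 7 in BM and 1775 in spleen for Ptpn11D61Y/+ against MxCre, 63 for the spleen minus LSK interaction, and 4 for the BM minus LSK interaction. This setting called members numbering 2 in spleen for Ptpn11D61Y/+ against MxCre. Opposite in sign were Bmf -0.070 and Bax -0.015 in spleen for S3 against MxCre, and Bok -0.10 for the spleen minus LSK interaction. With DESeq2's size factors in edgeR, the log2 values of the other sign were Bmf -0.012 in spleen for S3 against MxCre. With library size alone, the genes called were 1707 in spleen for Ptpn11D61Y/+ against MxCre, and 14 for the spleen minus LSK interaction. Members called were then 0 in spleen for S3 against MxCre, and 5 for BM against LSK. Values that changed sign were Bcl2l11 0.011, Bmf 0.37, Bad 0.061 and Bax 0.30 in BM and Bad 0.15 and Bok 0.28 in spleen for S3 against MxCre, Bad 0.17 and Bax 0.48 in spleen for Ptpn11D61Y/+ against MxCre, Bcl2l11 -0.16, Bid -0.14 and Bak1 -0.0068 for BM against LSK, Bid -0.28 for spleen against LSK, Bad 0.029 for spleen against BM, Bmf 0.066, Bad 0.035 and Bak1 0.39 for the spleen minus LSK interaction, and Bmf 0.00070 and Bak1 0.33 for the BM minus LSK interaction. The mean log2 CPM moved to Bcl2l11 4.66 in LSK, Bid 6.05 in LSK, Bad 4.48 in LSK, Bad 4.80 in BM, Bax 5.63 in LSK, Bax 6.02 in BM and Bak1 6.14 in LSK. With no low-count filter, the genes called were 1 in BM and 495 in spleen for S3 against MxCre, and 10 for the spleen minus LSK interaction. This setting called members numbering 2 for spleen against BM. Signs were opposite for Bad 0.0053 in LSK for Ptpn11D61Y/+ against MxCre. With a minimum of 10 counts in each compared library, the genes called were 1 in LSK for S3 against MxCre, 5 in LSK for Ptpn11D61Y/+ against MxCre, and 7595 for BM against LSK. Members called were then 1 in spleen for Ptpn11D61Y/+ against MxCre. Opposite in sign were Bmf -0.024 and Bax -0.0075 in spleen for S3 against MxCre. With only the compared libraries fitted, the genes called were 4700 in LSK and 0 in spleen for S3 against MxCre, 2508 in LSK and 272 in spleen for Ptpn11D61Y/+ against MxCre, 882 for spleen against BM, and 74 for the spleen minus LSK interaction. This setting called members numbering 4 in LSK and 0 in spleen for S3 against MxCre, 3 in LSK for Ptpn11D61Y/+ against MxCre, and 1 for spleen against BM. Values that changed sign were Bmf -0.052 and Bax -0.032 in spleen for S3 against MxCre, and Bak1 -0.0035 in BM for Ptpn11D61Y/+ against MxCre. With Ptpn11D61Y/+ in place of MxCre libraries, the genes called were 19 in LSK and 1 in spleen for S3 against MxCre, 0 for the spleen minus LSK interaction, and 3 for the BM minus LSK interaction. Members called were then 0 in spleen for S3 against MxCre. Signs were opposite for Pmaip1 1.03 in LSK, Bcl2l11 0.038, Bbc3 -0.048, Pmaip1 0.61, Bad 0.087, Bax 0.34 and Bok 0.90 in BM and Bmf -0.14 and Bad 0.19 in spleen for S3 against MxCre, Bok -0.13 for the spleen minus LSK interaction, and Bbc3 -0.040 and Bok 1.44 for the BM minus LSK interaction. With both controls averaged, the genes called were 15 in BM and 0 in spleen for S3 against MxCre, and 0 for the spleen minus LSK interaction. This setting called members numbering 0 in spleen for S3 against MxCre. Opposite in sign were Pmaip1 0.50 in LSK, Bax 0.13 in BM and Bmf -0.057 in spleen for S3 against MxCre, and Bok 0.43 for the BM minus LSK interaction. Without the 3 libraries of fewest genes (chosen after the data were seen), the genes called were 1 in LSK and 1562 in spleen for S3 against MxCre, 20 in LSK and 2081 in spleen for Ptpn11D61Y/+ against MxCre, 4255 for spleen against BM, and 273 for the spleen minus LSK interaction. Members called were then 1 in spleen for Ptpn11D61Y/+ against MxCre, and 1 for the spleen minus LSK interaction. Values that changed sign were Bcl2l11 0.60, Pmaip1 1.12 and Bax 0.18 in BM and Bmf -0.15 in spleen for S3 against MxCre, Bcl2l11 0.36, Bid 0.047, Pmaip1 0.32 and Bak1 -0.26 in BM and Bmf -0.011 and Bak1 -0.17 in spleen for Ptpn11D61Y/+ against MxCre, Bid 0.079 and Bad 0.019 for spleen against BM, and Pmaip1 1.15 for the BM minus LSK interaction. In MxCre libraries alone, the genes called were 7221 for BM against LSK, and 179 for spleen against BM. This setting called members numbering 4 for BM against LSK, and 0 for spleen against BM. Signs were opposite for Bok 0.37 for BM against LSK, and Bid 0.17 for spleen against BM. In Ptpn11D61Y/+ libraries alone, the genes called were 3844 for BM against LSK, 3542 for spleen against LSK, and 722 for spleen against BM. Members called were then 5 for BM against LSK, and 0 for spleen against BM. Opposite in sign were Bmf -0.94 for spleen against BM. In S3 libraries alone, the genes called were 5301 for BM against LSK, 5349 for spleen against LSK, and 11 for spleen against BM. This setting called members numbering 4 for BM against LSK, and 0 for spleen against BM. Values that changed sign were Bid -0.39 for spleen against LSK, and Bbc3 -0.11 for spleen against BM. Per length of the longest transcript in place of the exon union, the mean level over all libraries became Bcl2l11 2.52, Bid 4.57, Bad 4.08 and Bax 5.98 log2 CPM per kb.

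Leaving out each library in turn, the genes called ran from 0 to 3 in LSK, 0 to 2040 in BM and 267 to 860 in spleen for S3 against MxCre, 0 to 8 in LSK, 0 to 2852 in BM and 0 to 610 in spleen for Ptpn11D61Y/+ against MxCre, 1310 to 4231 for spleen against BM, 0 to 215 for the spleen minus LSK interaction, and 0 to 438 for the BM minus LSK interaction. The members called ran from 0 to 1 in spleen for S3 against MxCre, 0 to 1 in BM and 0 to 1 in spleen for Ptpn11D61Y/+ against MxCre, and 1 to 5 for spleen against BM. Members whose sign turned in at least 1 such fit ran from Pmaip1 -0.42 to 0.22 and Bmf -0.19 to 0.76 in LSK, Bcl2l11 -0.997 to 0.39, Pmaip1 -2.15 to 0.93, Bmf -0.55 to 0.24 and Bax -0.20 to 0.073 in BM and Bmf -0.24 to 0.26, Bad -0.52 to 0.043, Bax -0.19 to 0.29 and Bok -1.37 to 0.46 in spleen for S3 against MxCre, Bid -0.045 to 0.079, Bad -0.11 to 0.073 and Bok -0.30 to 0.036 in LSK, Bcl2l11 -1.03 to 0.36, Bid -0.68 to 0.048, Pmaip1 -2.76 to 0.33 and Bak1 -0.26 to 0.67 in BM and Bmf -0.11 to 0.42, Bax -0.45 to 0.17 and Bak1 -0.17 to 0.43 in spleen for Ptpn11D61Y/+ against MxCre, Bad -0.18 to 0.036 and Bak1 -0.033 to 0.28 for spleen against BM, Bmf -0.72 to 0.23, Bak1 -0.39 to 0.21 and Bok -0.71 to 1.13 for the spleen minus LSK interaction, and Bcl2l11 -0.51 to 0.88, Pmaip1 -2.13 to 0.95, Bmf -0.99 to 0.088, Bak1 -0.49 to 0.44 and Bok -1.76 to 0.19 for the BM minus LSK interaction. In BM the highest counts of genes were without MxCre 2, which leaves MxCre 1 alone in its group with its spread taken from the other groups.

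For the comparisons of S3 libraries with controls, no paired analysis was possible because they share no numbers. Between the control genotypes, with the replicate number as a block, the genes called were 3 in LSK and 475 in spleen for Ptpn11D61Y/+ against MxCre. With library numbers as a block over all libraries, 0 genes were called for the spleen minus LSK interaction, and the log2 values of the other sign were Bak1 0.084 for the spleen minus LSK interaction and Bcl2l11 -0.34 and Bak1 0.15 for the BM minus LSK interaction. With this block Bcl2l11 was not called in BM against LSK (0.52, adjusted p = 0.0925 by edgeR) and Bid was called in spleen against LSK (0.61, adjusted p = 0.0142). Over all fractions these numbers did not pair the samples. With the S3 numbers shared by BM and spleen as a block (added after the data were seen), 4346 genes were called for spleen against BM, Bbc3 gained a call and no other member's call changed, and in S3 libraries alone 7 genes and 0 members were called. Scaled by library size alone (added after the data were seen), 1 member in BM and 3 in spleen had every library above LSK, and the median summed level in LSK was 108 CPM per kb. Bok had as few as 7 counts in a library and each other member at least 198.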
